A study of Mus musculus with 5 samples.

Results

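Replication-type histone genes encode the linker histone H1 and the core histones H2A, H2B, H3 and H4 that package newly copied DNA. They were taken as every gene of the count table whose symbol starts with Hist1h to Hist4h, which gave 68 of 24411 genes. The genes were selected on their names, and the cells on having at least 1000 genes and 30000 UMIs. A UMI (unique molecular identifier) is a random tag that lets each captured transcript be counted once. Of the 480 columns of the table, 294 cells passed and 111 columns held 0 UMIs.

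The cells were single cells from the blood that circulates through the heart of wild-type C57BL/6 mouse embryos, taken at E9.5 (2 batches) and E10 (3 batches). The sort removed cells that carried TER119, CD41, CD43 or CD45, which are surface proteins of red cells, platelets and other blood cells, and single cells were then picked by mouth pipette. A modified STRT-seq protocol with an oligo-dT primer and polyadenylated RNA was used, although the series text calls the method Smart-Seq and gives 300 cells. E9.5 replicates 1 and 2 gave 26 and 46 kept cells, and E10 replicates 1 to 3 gave 87, 72 and 63. The labels do not say whether a batch is 1 litter or several, so the spread between batches may be partly technical.

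Replication-dependent histone mRNAs differ from nearly all other mRNAs of animal cells. They are made mainly during S phase, when DNA is copied, and most end in a conserved stem-loop rather than a poly(A) tail. SLBP binds that stem-loop and takes part in processing, translation and decay of the transcript, and the transcripts are degraded as S phase ends. Some histone genes also yield polyadenylated transcripts, and a primer of T bases can capture only a transcript with a run of A bases. What is described here is therefore the polyadenylated or A-primed part of the histone transcripts, not their whole amount.

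Per batch the kept cells held a median of 144729 to 485692 UMIs and of 6243 to 9033.5 genes. All 5 batches used the same 96 well numbers. Some wells with few UMIs, 23 in all, resembled the like-numbered well of a different batch, and 0 of these were among the kept cells. The label calls the cells non-haematopoietic. Ptprc, which encodes CD45, was at 0 in all 5 batches, and Csf1r, a macrophage gene, was at 0.824 CPM (UMIs of a gene per 1000000 UMIs) or less. Itga2b, which encodes CD41, stood at 1.13 to 16.6 CPM of the summed UMIs, and Spn, which encodes CD43, at 0.133 to 9.02 CPM. The 4 haematopoietic progenitor markers (Kit, Myb, Gfi1b and Spn) summed to 24.1 to 125 CPM per batch. The 9 erythroid markers, mostly globins, nevertheless summed to 3429 to 95619 CPM per batch, the lowest in E10 replicate 1. The 4 endothelial markers summed to 326 CPM in E9.5 replicate 1 and to 6.96 to 18.5 CPM in the other batches, and the 4 pluripotency markers to 1356 CPM in E10 replicate 1 and to no more than 0.928 CPM elsewhere. The part of these cell types in the histone levels was not tested, except where values are given below.

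Histone transcripts were a small part of the libraries, and their level differed widely from cell to cell. The 68 genes together held 142130 UMIs, 0.136% of all UMIs of the kept cells. Across the 294 cells the histone sum ran from 31.8 to 25619 CPM, with a median of 797 CPM and quartiles of 424 and 1843 CPM. Only 6 cells lay under 100 CPM, while 15 lay over 5000 CPM and 7 over 10000 CPM.

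The per-cell median was 1229 CPM in E9.5 replicate 1 and 948 CPM in E9.5 replicate 2. It was 641, 988 and 831 CPM in E10 replicates 1, 2 and 3. A few cells carried much of the total: the tenth of cells with the highest sums held 35.5% and 56.9% of the summed per-cell CPM in the E9.5 batches and 47.1%, 32.5% and 53.7% in the E10 batches. The range within any batch was thus far wider than the distance between batch medians. At the limit on depth, the 5 kept cells with the fewest UMIs held 256 to 2879 CPM, and the 5 cells just below the limit 177 to 1252 CPM.

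**Figure D1:**
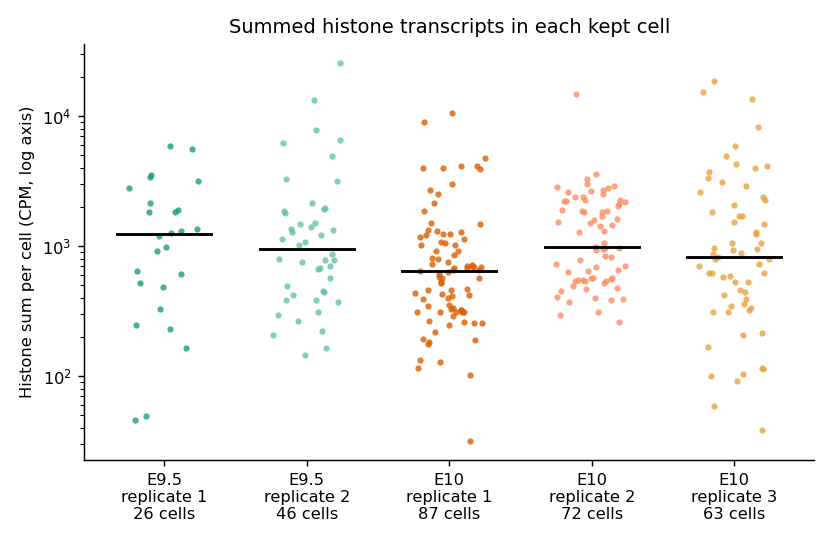
Summed CPM of the 68 histone genes in each of the 294 kept cells (points, logarithmic vertical axis) for the 5 batches on the horizontal axis, with the median of each batch as a bar. Cells spread from 31.8 to 25619 CPM and the batch medians lie between 641 and 1229 CPM.

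Over the summed UMIs of a batch, histone genes reached 1802 and 1552 CPM in the E9.5 batches and 1111, 1410 and 1585 CPM in the E10 batches. The mean was 1677 ± 177 CPM (SD, n = 2) at E9.5 and 1368 ± 240 CPM (SD, n = 3) at E10. The stages overlapped, since E10 replicate 3 lay above E9.5 replicate 2, and the difference of -309 CPM was smaller than the range within E10. No p is given for the sum, because its genes were chosen with earlier results known.

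The level of replacement-type histones, most of which are made outside S phase as well and from polyadenylated mRNAs, gives a scale for these values. The 11 such genes on the list (among them H3f3a and H3f3b for H3.3, H2afz for H2A.Z and Cenpa for the centromeric H3) summed to 6920, 6023, 5297, 4068 and 4428 CPM in the 5 batches. The 68 replication-type genes together lay below that sum in every batch. H3f3b alone, at 2302, 1927, 1576, 1107 and 1332 CPM, exceeded the whole replication-type sum in 3 of the 5 batches. Each molecule is counted once at its 3' end, so these levels need no correction for length.

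Genes of the large cluster on chromosome 13, named Hist1h, carried nearly all of the UMIs. Its 54 genes held 94.4% of the histone UMIs (mean over batches, range 91.9 to 96.8%). The 10 Hist2h genes on chromosome 3 held 4.31%, the 3 Hist3h genes 0.901% and the single Hist4h gene 0.368%. Of the 68 genes, 59 had at least 1 UMI in a kept cell. The 9 at 0 were Hist1h1t, a testis H1, Hist1h2ap, Hist1h2bq, Hist1h2br, Hist1h4m, Hist2h2aa1, Hist2h2aa2, Hist2h3c1 and Hist2h3c2. A count of 0 in 142130 histone UMIs can also arise where near-identical copies share reads, and within H2A the coding sequence closest to a member was identical to it at a median of 99.0% of bases. Values of single core histone genes are for that reason uncertain at the level of which copy was read.

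H2A genes took the largest share of the histone UMIs, and the 5 types did not stand in equal amounts. Averaged over batches, H2A took 38.5 ± 5.49%, H2B 22.9 ± 4.58%, H1 16.0 ± 6.88%, H4 12.2 ± 1.86% and H3 10.4 ± 2.33% (SD, n = 5). H2A ranked above H2B in every batch. H1, the linker histone that sits outside the nucleosome core, varied most: 7.68% and 10.4% at E9.5 against 20.5%, 24.2% and 17.3% at E10. The shares of H1, H3 and H4, 3 of the 5 types, did not overlap between the stages, a description chosen after their values were seen. For H4 the gap was narrow, from a lowest share of 12.9% at E9.5 to a highest of 12.7% at E10. Shares of 1 whole do not vary independently, and with 2 and 3 batches this separation was not tested. H3 and H4, which form the inner tetramer of the nucleosome, were the lowest of the core types in mean share.

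The 12 genes with the largest shares held 60.0% of the histone UMIs, and the first of them 12.9%. Hist1h2ae, an H2A gene at chr13:23570517-23571220 on the minus strand (GRCm38, GENCODE M21 annotation, 1 exon), stood at 257 and 194 CPM in the E9.5 batches and at 98.1, 239 and 193 CPM in the E10 batches. It led in every batch, and it was lowest in E10 replicate 1. Hist1h1e, an H1 gene, followed with 58.4 and 76.4 CPM at E9.5 and 93.1, 194 and 133 CPM at E10. The annotated 3' end of Hist1h1e overlaps Hist1h2be on the same strand, so their UMIs may be mixed.

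The third gene, Hist1h2bc (H2B), had 157 and 87.8 CPM at E9.5 and 67.6, 85.8 and 63.8 CPM at E10. Hist1h2ag (H2A) came next with 90.4, 102, 53.3, 41.9 and 78.8 CPM in the same order of batches. Hist1h2ak (H2A) was the most uneven of the leading genes, with 147, 31.1, 43.5, 95.6 and 15.2 CPM. Each stage held a high and a low batch of this gene. The other leading genes were Hist1h2ac and Hist1h2an (H2A), Hist1h1b (H1), Hist1h3c (H3), Hist1h2bk and Hist1h2bj (H2B) and Hist1h4i (H4), with mean levels of 39.8 to 64.8 CPM. At the other end, Hist1h2aa and Hist1h2ba, known as testis genes, had 6 and 35 UMIs in all.

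**Figure D2:**
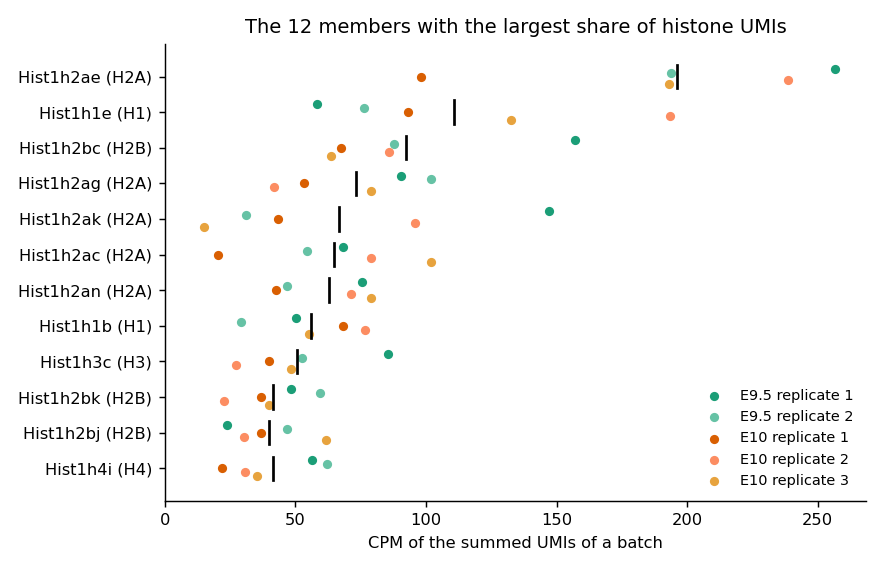
CPM of the summed UMIs of a batch (horizontal axis) for the 12 histone genes with the largest share of the histone UMIs, 1 point per batch and a bar at the mean of the 5 batches. Hist1h2ae lies at 98.1 to 257 CPM, and Hist1h2ak spreads from 15.2 to 147 CPM.

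The annotated 3' ends were read to see which of these genes carry the stem-loop that replaces the poly(A) tail. A stem-loop was searched as a stem of 6 base pairs that starts with GG and a loop of 4 bases, within 100 bases after the stop codon. For each histone gene the longest coding transcript was read. Of the 67 genes with an annotated coding transcript, 50 had a 3' UTR of at least 50 bases, and 45 of these held the stem-loop, at a median of 31 bases after the stop codon. The other 17 had an annotated end too close to the stop codon, 13 of them directly at it, so that the absence of the motif there says nothing. Among 20796 other genes the same search, on any of their coding transcripts, found a match in 71 (0.341%). The sites of 5 leading genes and, below them, of a second H4 gene are shown because they cover the most frequent cores, with the 16 bases of the stem-loop in capitals and 5 flanking bases on each side.

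Hist1h2ae: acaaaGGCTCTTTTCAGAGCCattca
Hist1h1e: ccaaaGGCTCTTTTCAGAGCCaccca
Hist1h2ac: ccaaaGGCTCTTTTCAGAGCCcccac
Hist1h3c: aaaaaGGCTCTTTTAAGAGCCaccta
Hist1h4i: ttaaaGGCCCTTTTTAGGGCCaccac
Hist1h4n: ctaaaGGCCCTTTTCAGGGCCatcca

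The H1 and H2A genes shown share 1 core, which was found in 25 of the 45 genes. The core of Hist1h3c occurred in 6 genes, that of Hist1h4n in 7 and that of Hist1h4i in 2. The H4 cores shown differ from the H1 and H2A core within the stem.

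Genes with an annotated stem-loop held much of the histone count in these oligo-dT libraries. The 28 genes with a stem-loop and no poly(A) signal (AATAAA or ATTAAA) annotated after it summed to 600 CPM, and 5 of the 12 leading genes were among them. The 17 genes with a stem-loop and a later poly(A) signal summed to 439 CPM, with Hist1h2ae, Hist1h2ac and Hist1h4i among the leading 12. The median level was 13.5 CPM in the first set and 11.5 CPM in the second, and both sets ran down to 0. Of the 45 genes with a stem-loop, 19 had 50 or fewer annotated bases after it. A later signal could lie beyond such an end, so the first set may hold genes that have one. Hist1h2ag, Hist1h2bk and Hist1h2bj of the leading genes in that set had only 23, 30 and 23 bases. The 22 genes without a stem-loop, most of them with a short annotated end, summed to 452 CPM. Hist1h2bc was the highest of the 5 genes that had a long 3' UTR and no stem-loop. Its annotated transcript has 2 exons (chr13:23684199-23692908, plus strand) and a 3' UTR of 742 bases with 1 poly(A) signal. Hist1h2bp, Hist2h2be, Hist1h2bq and Hist1h2br were the others. This holds for the longest coding transcript only, and Hist1h2bp has a second coding transcript that does carry a stem-loop.

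The 250 bases before and 50 after the transcription start were available from RefSeq (GRCm38.p6) for 61 of the 68 genes, and held 3 elements known from histone promoters more often than other promoters did. On either strand, CCAAT was found in 52 of 61 (85.2%) against 37.3% of 32789 other promoters. TATAAA was found in 35 (57.4%) against 13.5%. The octamer ATTTGCAT, bound by OCT1, was found in 13 (21.3%) against 1.70%, and all 13 were H2A or H2B genes. CCAAT was present in every H1, H2A, H2B and H3 promoter of the table and in 3 of 12 H4 promoters. Head-to-head neighbours share such sequence: 13 pairs lay 176 to 660 bases apart, most of them H2A with H2B. The promoters of Hist1h2ae (chr13:23571171-23571470), Hist1h2ac (chr13:23683910-23684209) and Hist1h4i (chr13:22041313-22041612), all on the minus strand, are shown because the first of these genes was the highest, both H2A genes rose in the ranking by Top2a and Cdk1 that follows, and the H4 gene lacked CCAAT. Motifs are in capitals, and a match is a run of letters, not a measured binding site.

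Hist1h2ae: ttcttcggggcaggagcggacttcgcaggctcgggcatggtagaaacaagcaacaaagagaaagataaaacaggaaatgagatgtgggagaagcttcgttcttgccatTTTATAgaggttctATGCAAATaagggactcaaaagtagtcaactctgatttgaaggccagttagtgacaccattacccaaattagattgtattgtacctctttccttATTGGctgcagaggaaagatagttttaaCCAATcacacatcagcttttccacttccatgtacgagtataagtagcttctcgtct
Hist1h2ac: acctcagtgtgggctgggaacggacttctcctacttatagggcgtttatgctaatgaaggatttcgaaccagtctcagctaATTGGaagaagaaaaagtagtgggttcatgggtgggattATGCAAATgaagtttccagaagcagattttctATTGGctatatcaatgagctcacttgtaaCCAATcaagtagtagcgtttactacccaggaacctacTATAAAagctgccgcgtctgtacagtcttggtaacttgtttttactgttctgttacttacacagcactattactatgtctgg
Hist1h4i: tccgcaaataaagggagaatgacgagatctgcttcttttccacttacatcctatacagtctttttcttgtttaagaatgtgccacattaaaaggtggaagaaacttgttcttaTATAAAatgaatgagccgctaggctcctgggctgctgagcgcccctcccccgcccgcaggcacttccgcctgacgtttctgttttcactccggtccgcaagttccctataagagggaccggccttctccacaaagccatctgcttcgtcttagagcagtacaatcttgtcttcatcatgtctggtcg

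The H2A promoters hold all 3 elements, the octamer reading ATGCAAAT on the strand shown, whereas the H4 promoter holds TATAAA alone. In Hist1h2ae the TATAAA match also lies on the other strand and reads TTTATA. The head-to-head neighbour Hist1h2bg starts 176 bases away on the plus strand, on which this match reads TATAAA. The match lies nearer to the annotated start of Hist1h2bg than to that of Hist1h2ae. Which of the 2 genes it belongs to was not tested.

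The histone sum was then set against 4 genes of the cell cycle. Mcm5 encodes a subunit of the helicase that opens DNA at replication origins, and Pcna the sliding clamp of the replication fork. Top2a encodes the topoisomerase that untangles sister DNA, and Cdk1 the kinase that drives entry into mitosis; both accumulate from S phase to mitosis. Spearman's rho across the cells of a batch is given as a description, with no p, and cells of a batch share library preparation and differ in depth.

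With Top2a the histone sum had rho of 0.543 and 0.396 in the E9.5 batches (26 and 46 cells) and 0.543, 0.553 and 0.773 in the E10 batches (87, 72 and 63 cells). With Cdk1 the values were 0.540, 0.371, 0.434, 0.228 and 0.665 in the same order. With Pcna they were 0.317, 0.395, 0.391, 0.397 and 0.559. With Mcm5 they were 0.439, 0.291, 0.126, 0.203 and 0.303. Mean rho was thus highest with Top2a (0.562) and lowest with Mcm5 (0.272). When each cell was thinned to 30000 UMIs, the means were 0.556 for Top2a, 0.375 for Cdk1, 0.335 for Pcna and 0.239 for Mcm5, in the same order. The 4 genes were themselves related, most closely Top2a with Cdk1 (mean rho 0.747) and least Mcm5 with Top2a (0.200).

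**Figure D3:**
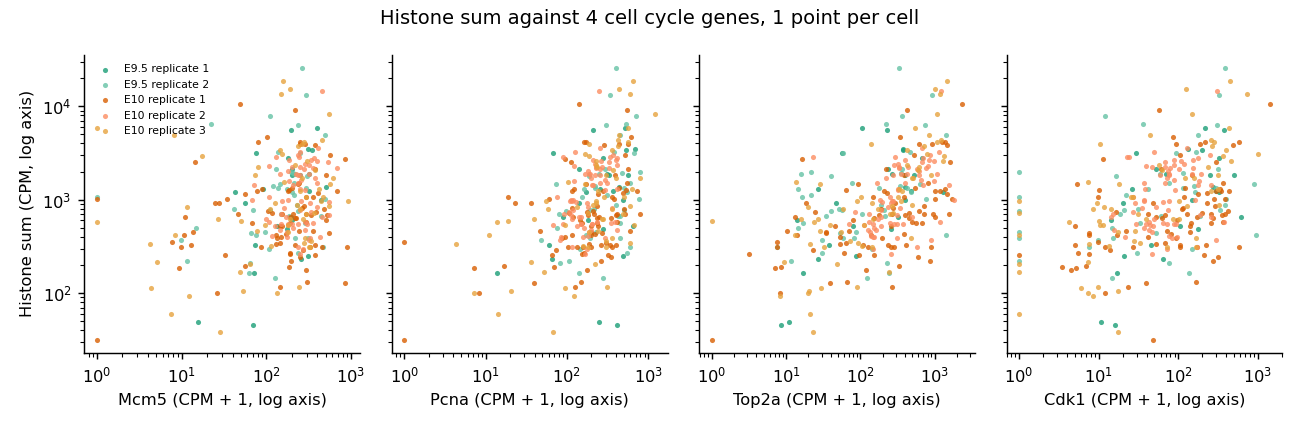
Histone sum (CPM, logarithmic vertical axis) against the CPM + 1 of Mcm5, Pcna, Top2a and Cdk1 (logarithmic horizontal axes), 1 point per cell, coloured by batch. The cloud slopes upward most clearly for Top2a, where mean rho within batches was 0.562, and least for Mcm5 (0.272).

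Among 7635 other genes with a UMI in at least 50% of the cells, Top2a was the gene most like the histone sum. Next came Fbxo5 (mean rho 0.552), an inhibitor of the anaphase-promoting complex, Atad2 (0.497), a chromatin ATPase, and 2810417H13Rik (0.482), the PCNA-associated factor. Tyms (0.466) and Tk1 (0.446), which supply thymidine nucleotides for DNA synthesis, and Rad51ap1 (0.434), a recombination factor, were also among the first 10, with Cdk1 (0.447), the chromatin protein gene Dek (0.420) and Pcna (0.412). Mcm5 ranked 88. For Hist1h2ae alone, Top2a again ranked first (0.583), followed by Fbxo5 (0.554), Tk1 (0.548), Rad51ap1 (0.542) and Pcna (0.525).

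Cells were also grouped by both pairs of genes. They were placed above or below their batch's median for the summed ranks of Mcm5 and Pcna and for the summed ranks of Top2a and Cdk1. Cells low for both pairs had the lowest histone level in each batch, at 837, 529, 343, 694 and 494 CPM of their summed UMIs. Cells high for Mcm5 and Pcna alone reached 871, 1235, 815, 1191 and 629 CPM. Cells high for Top2a and Cdk1 alone reached 2655, 1539, 1431, 1233 and 2628 CPM, above the former in 5 of 5 batches, though E9.5 replicate 1 had 4 cells in each of these groups. Cells high for both reached 2333, 2247, 1454, 2212 and 2239 CPM, above the cells high for Top2a and Cdk1 alone in 3 batches and below them in E9.5 replicate 1 and E10 replicate 3. By per-cell medians E9.5 replicate 1 went the other way, with 1820 CPM for both against 926 CPM for Top2a and Cdk1 alone.

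The 15 cells over 5000 CPM held histone genes of all types. Of them 13 had Pcna and 13 had Top2a above the batch median, 12 had Cdk1 and 8 had Mcm5. Their median was 745 CPM for Top2a against 235 CPM in the other cells, 308 against 68.7 CPM for Cdk1, 518 against 207 CPM for Pcna, and 196 against 203 CPM for Mcm5. H2B took 31.3% of their histone UMIs against 20.1% in the other cells, and H1 took 11.9% against 20.3%. They held fewer UMIs than the others, with a median of 158858 against 314813, and a UMI for a median of 47 histone genes against 25. The highest cell, in E9.5 replicate 2, had 25619 CPM on 72524 UMIs. The part of depth in these differences was not tested.

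To compare groups over batches, cells of each batch were ranked by the summed ranks of Mcm5 and Pcna, and the UMIs of the upper and of the lower tercile were summed. The histone sum was higher in the upper tercile in 5 of 5 batches. In the lower tercile it stood at 814, 575, 1083, 976 and 672 CPM, and in the upper at 2044, 2271, 1438, 2050 and 2379 CPM. The ranges did not overlap, and the log2 ratio was 1.32 ± 0.63 (SD, n = 5), smallest in E10 replicate 1 (0.41). From per-cell medians the log2 ratio of E10 replicate 1 was 1.02. Upper terciles were also deeper, with a median of 188729 to 544066 UMIs against 139076 to 453139 in the lower. In E10 replicate 3, 14 of the 21 cells of the lower tercile were neuronal-gene cells, meaning cells with at least 1000 CPM over 7 neuronal markers (Tubb3, Stmn2 and others). Without such cells, the log2 ratio of that batch went from 1.82 to 0.12, and the mean over the 5 batches became 0.93.

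Single genes were tested in edgeR on these sums, with batch as a term, over 11352 genes, and 0.194% of all genes were called higher (Benjamini-Hochberg adjusted p under 0.05). Hist1h2ae rose from 51.1, 17.4, 91.4, 123 and 47.5 CPM in the lower terciles to 316, 209, 128, 377 and 279.6 CPM in the upper. In every batch its upper value was above its lower value. Its log2 fold change was 2.30 (SE 0.39, adjusted p = 0.0453 by edgeR's quasi-likelihood test). Hist1h2an, another H2A gene, rose from 26.9, 18.2, 33.2, 45.0 and 27.4 CPM to 132, 71.5, 63.7, 106 and 125 CPM, with no overlap between the terciles. Its log2 fold change was 1.86 (SE 0.29, adjusted p = 0.0453, edgeR).

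These were the only members called of the 52 that passed the filter on low counts, against 27 called by DESeq2, which called 3.27% of all genes higher. Over all 59 genes with a UMI, 20 were higher in the upper tercile in each of the 5 batches and 0 were lower in each. This count was not made over all genes, so it has no background share. Both edgeR calls were lost when any single batch was left out (adjusted p 0.0588 to 0.236). Without neuronal-gene cells edgeR called 1 member, Hist1h2ak, rather than Hist1h2ae and Hist1h2an.

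Of the pathway genes in the same fit, DNA replication genes moved with this ranking. Leaving out Mcm5 and Pcna, 7 of 28 rose and 0 fell, among them Ccne2 (log2 fold change 3.23), Cdc6 (2.88) and Ccne1 (2.24), which act at the start of S phase. Of 14 histone chaperones, 1 rose, Chaf1b (1.94), a subunit of the complex that deposits H3 and H4 behind the fork. Of the 10 histone processing genes tested, the 11 replacement-type histones and the 25 genes of G2 and mitosis, edgeR called 0. At an unadjusted p under 0.05 they numbered 5, 3 and 2, and DESeq2 called 3 processing genes higher, 0 replacement-type histones and 1 gene of G2 and mitosis lower. Slbp had a log2 fold change of 0.93 (adjusted p = 0.172 by edgeR). The median log2 fold change of the DNA replication list was 1.32, against -0.02 for all genes tested.

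Ranked by the summed ranks of Top2a and Cdk1 instead, the terciles also differed. The histone sum stood at 653, 719, 473, 836 and 427 CPM in the lower tercile and at 2408, 2176, 1317, 1897 and 3266 CPM in the upper. No lower value reached any upper one, and the log2 ratio was 1.81 ± 0.67 (SD, n = 5). It was larger than in the other ranking in 4 of 5 batches and smaller in E9.5 replicate 2, and this difference was not tested. From per-cell medians it was smaller in E10 replicate 2 too, at 1.63 against 1.70. Upper terciles were again deeper except in E10 replicate 3, where the median was 253331 UMIs against 270445 in the lower. In the other batches the medians were 163052 to 625722 UMIs in the upper and 101590 to 451980 in the lower. The lower tercile of E10 replicate 3 again held 14 neuronal-gene cells among 21. Without such cells the log2 ratio was 2.64 in that batch, and it was positive in all 5.

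Of 11245 genes, edgeR called 0.205% higher, and 3 members of the 52 tested were among them, all H2A genes. Hist1h2ae rose from 67.5, 23.9, 35.8, 101 and 28.8 CPM to 433, 247, 116, 411 and 410.0 CPM, a log2 fold change of 2.73 (SE 0.33, adjusted p = 0.0204). Hist1h2ac rose from 2.91, 8.69, 6.77, 21.9 and 9.47 CPM to 103, 72.1, 27.1, 114 and 211 CPM, a log2 fold change of 3.31 (SE 0.49, adjusted p = 0.0354). Hist1h2ah was nearly absent from the lower terciles, at 0, 0.543, 0.254, 4.12 and 1.46 CPM, and stood at 76.0, 30.4, 7.92, 28.7 and 67.6 CPM in the upper, a log2 fold change of 5.10 (SE 0.77, adjusted p = 0.0365). For each of the 3 genes no lower tercile reached any upper one.

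DESeq2 called 27 members on these sums, where it called 1.88% of all genes higher. They were 9 H2A, 8 H2B, 5 H3, 3 H4 and 2 H1 genes. Over the 59 genes with a UMI, 28 were higher in the upper tercile in each batch and 0 lower in each, again without a count over all genes. Leaving out 1 batch at a time changed the edgeR count to between 0 and 5 members. It was 0 without E9.5 replicate 1 or 2, and 1, Hist1h2ae, without E10 replicate 1 or 3. By type, the log2 ratio of the summed UMIs was 2.50 ± 0.74 for H2A, 1.76 ± 1.13 for H3, 1.74 ± 1.10 for H1, 1.47 ± 0.62 for H2B and 1.31 ± 1.01 for H4 (SD, n = 5), positive in every batch for each type.

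In this fit 5 of 23 genes of G2 and mitosis rose besides the pair used for ranking, among them Kif11 (log2 fold change 3.20), a spindle motor, Ccnb1 (2.99), the cyclin that partners Cdk1, and Ube2c (2.49), which marks cyclins for destruction. Of the 30 DNA replication genes edgeR called 0, with 18 at an unadjusted p under 0.05, and DESeq2 called 7 higher. It also called 0 of 14 chaperones, 0 of 10 histone processing genes and 0 of 11 replacement-type histones, with 3, 0 and 4 at an unadjusted p under 0.05 and 1, 0 and 3 called higher by DESeq2. The fits of both rankings share their cells and are not independent.

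**Figure D4:**
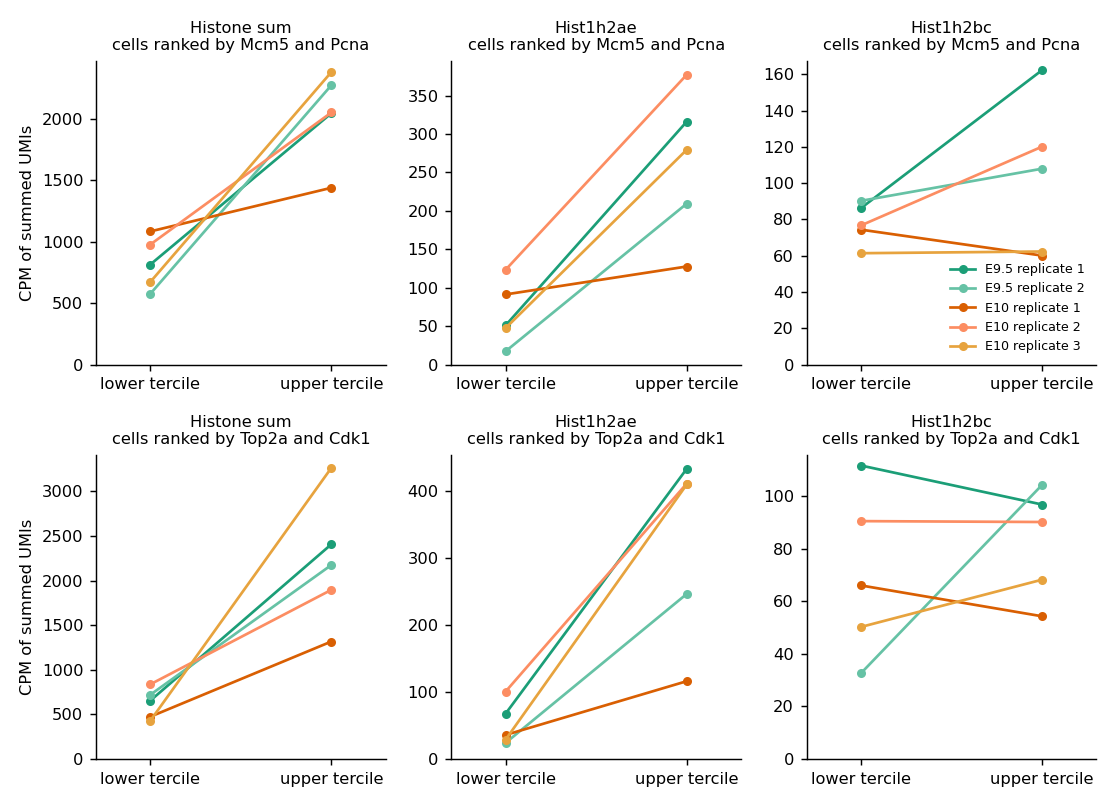
CPM of summed UMIs in the lower and the upper tercile of cells (horizontal axis), 1 line per batch, for the histone sum, Hist1h2ae and Hist1h2bc. Cells were ranked by Mcm5 and Pcna in the upper row and by Top2a and Cdk1 in the lower row. The sum and Hist1h2ae climb in every batch, whereas Hist1h2bc crosses with log2 ratios from -0.30 to 1.65.

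Among the 12 leading genes Hist1h2bc had the smallest tercile differences, which was noticed after its values were seen. In the ranking by Mcm5 and Pcna it went from 86.2, 90.2, 74.4, 76.7 and 61.4 CPM to 162, 108, 60.1, 120 and 62.3 CPM. In the ranking by Top2a and Cdk1 it went from 112, 32.6, 66.1, 90.6 and 50.3 CPM to 96.9, 104, 54.3, 90.3 and 68.3 CPM. The terciles overlapped in both. The log2 fold changes were 0.45 (SE 0.23, adjusted p = 0.397) and 0.33 (SE 0.30, adjusted p = 0.833) in edgeR. Most other leading genes were not called either. Hist1h2ag had 0.73 by Mcm5 and Pcna (adjusted p = 0.334, edgeR). Hist1h4i had 1.21 by Top2a and Cdk1 (adjusted p = 0.646, edgeR) and was higher in 3 of 5 batches. Hist1h2bc was the third most abundant gene. Its mean rho was 0.00909 with Pcna, 0.0600 with Top2a and 0.0270 with Cdk1. Each was the lowest of the 23 members with a UMI in at least 50% of cells. Its median rho with the other leading genes was 0.136, against 0.268 to 0.489 for the rest of the 12. It is also the only leading gene with a long annotated 3' UTR and no stem-loop. With 1 such gene among the 23, the relation of the 3' end to these values was not tested.

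Among the 23 members, most H2A genes had a high rho with Top2a, though part of this order was lost at equal depth. The 9 H2A genes had a median of 0.583, with Hist1h2ad highest at 0.665. The 7 H2B genes had a median of 0.300 and the 4 H4 genes of 0.235, while the H1 genes stood at 0.449 and 0.492 and Hist1h3c at 0.437. With cells thinned to 30000 UMIs the H2A median was 0.388, close to Hist1h3c (0.383), Hist1h2bk (0.383) and Hist1h1e (0.382). The H2B median was then 0.248 and the H4 median 0.179. Hist1h2ad went to 0.363, Hist1h2ac was highest at 0.542, and Hist1h2bc was still lowest at 0.0954. Members in pairs showed a like picture: over the 66 pairs of leading genes the median rho was 0.365, from 0.0181 for Hist1h1e with Hist1h2bc to 0.713 for Hist1h2ae with Hist1h2ac. It was 0.269 after thinning.

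**Figure D5:**
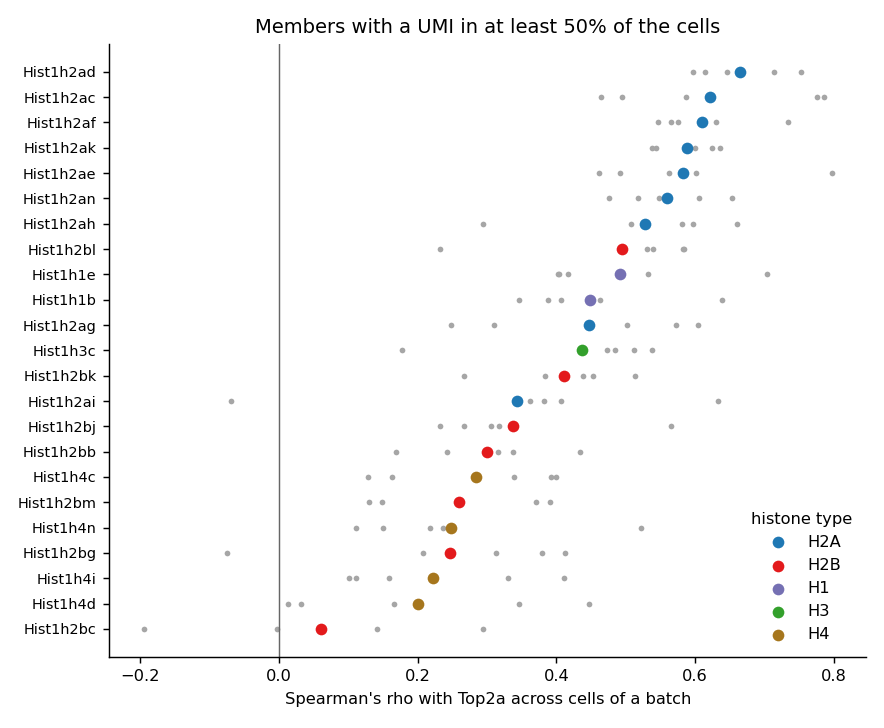
Spearman's rho with Top2a across the cells of a batch (horizontal axis) for the 23 histone genes with a UMI in at least 50% of cells, with the 5 batches as small grey points and their mean as a large point coloured by histone type. Without thinning, as plotted, H2A genes have a median of 0.583 and Hist1h2bc is lowest at 0.0600; with cells thinned to equal UMIs the H2A median is 0.388.

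Between the stages no histone gene passed the test. In edgeR 0 of 57 members were called at an adjusted p under 0.05, and 0% of all 14103 genes. At an unadjusted p under 0.05 there were 12 members and 1119 of all genes. DESeq2 called 0 members and 0.677% of all genes. The 59 genes with a UMI ran in both directions, and the median log2 difference of the 57 tested (E10 over E9.5) was -0.49, against 0.09 for all genes. By type the medians were 0.69 for H1, -0.43 for H2A, -0.82 for H2B, -0.84 for H3 and -0.58 for H4. The difference of the tercile effects between the stages was tested as an interaction in edgeR. It called 0 of 56 members for the ranking by Mcm5 and Pcna and 0 of 57 for that by Top2a and Cdk1. At an unadjusted p under 0.05 there were 4 members and 508 of all 13535 genes in the first. In the second there were 3 members and 572 of all 13382 genes. Of all genes 0% were called in each, and DESeq2 called 0 members in either.

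Cells that expressed neuronal genes had a lower histone level. There were 29 such cells, and 3 batches had at least 5. Their histone sum was 470, 506 and 825 CPM in E9.5 replicate 2 and E10 replicates 1 and 3, against 1709, 1140 and 1822 CPM in the other cells of the same batches. The per-cell medians were 389, 372 and 333 CPM against 1129, 655 and 1014 CPM. All 3 sums lay below every value of the other cells, with a log2 ratio of -1.39 ± 0.41 (SD, n = 3). In edgeR 2.23% of 11543 genes were called lower, and among the 51 members tested these were Hist1h2ae (log2 fold change -2.09, adjusted p = 0.00798), Hist1h2ag (-2.38, adjusted p = 0.0474) and Hist1h2bk (-2.70, adjusted p = 0.0484). DESeq2 called 27 members lower, where 7.09% of all genes were. Of the 59 genes with a UMI, 44 were lower in all 3 batches and 0 higher in all, a count that was not made over all genes.

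Genes of DNA replication and of mitosis were mostly lower in the neuronal-gene cells in the fit, but not in every batch. In edgeR 1 of 30 DNA replication genes and 0 of 25 genes of G2 and mitosis had a positive log2 fold change. The medians were -1.02 and -1.70, against -0.23 for all genes tested. Of the 30 DNA replication genes, 3 fell in edgeR: Pola1 (log2 fold change -2.06), the catalytic subunit of the primase complex's polymerase, Mcm6 (-1.63), a helicase subunit, and Tipin (-1.31), which steadies the fork. At an unadjusted p under 0.05 they numbered 17, and DESeq2 called 9 lower and 0 higher. By batch, 16 of the 30 were higher in E9.5 replicate 2, 6 in E10 replicate 1 and 0 in E10 replicate 3. Of the 25 genes of G2 and mitosis edgeR called 0, with 17 at an unadjusted p under 0.05, and DESeq2 called 15 lower. Their direction differed by batch: 24 of the 25 were higher in the neuronal-gene cells of E9.5 replicate 2, where the histone sum was lower, while all 25 were lower in E10 replicates 1 and 3. Top2a, for one, stood at 521 CPM against 201 CPM in the other cells of E9.5 replicate 2, and at 131 against 535 CPM and 135 against 383 CPM in the E10 batches. These cells are a range cut from a score, and 18 cells lay between 500 and 2000 CPM over the 7 markers.

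For the 48 globin-rich cells, with at least 10% of their UMIs from globin genes, the direction depended on the scaling and on 1 batch. Their histone sum per total UMIs was 1059, 1636 and 1084 CPM in E9.5 replicate 2 and E10 replicates 2 and 3, against 1721, 1284 and 1782 CPM in the other cells, lower in 2 batches and higher in 1. With TMM scaling, which sets the bulk of genes to the same level, edgeR called 6 of 51 members higher and 0 lower, where 10.7% of all genes were called higher. With total UMIs as the only scaling it called 0 higher and 2 lower, Hist1h2an and Hist1h4n, and the median of all genes moved from -0.15 to -0.99. The 6 genes were Hist1h1a, Hist1h1e, Hist1h2bc, Hist1h2bj, Hist1h4d and Hist1h4i, with log2 fold changes of 0.85 to 1.36 under TMM. DESeq2 called 6 members higher, with 12.4% of all genes, and 1 lower, Hist1h2bp. Without E10 replicate 2, edgeR with TMM called 0 higher and 2 lower, Hist1h2bn and Hist1h2bp. The share of members called is near that of all genes, and 61 cells lay between 5 and 20% globin.

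The 25 cells of E10 replicate 1 with Dppa5a, a pluripotency gene, at 500 CPM or more had a histone sum of 1146 CPM, against 1092 CPM in the 62 other cells of the batch. Their per-cell medians were 641 and 614 CPM. In them Hist1h2ak stood at 71.9 CPM against 28.5 CPM, and Hist1h1e at 64.5 against 108 CPM. With 1 batch there is no test of these differences.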

How the data were processed

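The deposited table holds UMI counts per gene and cell, made by the authors with CASAVA 1.8, TopHat2 2.0.12 on mm10 and HTSeq (no version), per the submitters' processing notes. Strand handling and treatment of reads shared by near-identical genes are not given in the sources used here. The 95 spike-in rows were dropped. Columns carry a batch number, which was matched to the samples' titles. Kept cells needed 1000 genes and 30000 UMIs. CPM are the UMIs of a gene per 1000000 UMIs of a cell or of a summed batch.

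Sums of counts over the cells of a batch, tercile or class (at least 5 cells) were tested in edgeR 4.0.16 under R 4.3.3 (filterByExpr, TMM, quasi-likelihood test, Benjamini-Hochberg adjustment at 0.05 over all genes), with batch as a term except between stages, where each batch has 1 stage. DESeq2 1.42.0 was the alternative. The edgeR fit was tried on simulated counts for the stage, tercile and class comparisons. DESeq2 and the interaction fits were not tried on simulated counts. Standard errors are the log2 fold change over the square root of F. Terciles were ranked on genes of the same cells, so their p-values do not come from an independent grouping. Picked single cells were not screened for doublets.

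Named genes are the 12 members with the largest share of histone UMIs, up to 5 called members per direction, up to 3 called genes of each list, Mcm5, Pcna, Top2a and Cdk1, and the 10 genes most like the sum. Stem-loops were read from GENCODE M21 transcripts and promoters from RefSeq. Members and lists were chosen with earlier results of these data known. No genome sequence or protein sequences were used here.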

Additional observations from a re-analysis of the deposited data

Results flagged for a closer look

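Of 26 sets of 5 batch values, 2 held a batch far from the other 4 (Dixon's criterion, critical value 0.71), where chance gives about 1 in 20. For Hist1h3c, an H3 gene, the log2 ratio of the upper over the lower tercile by Mcm5 and Pcna was 2.47 in E9.5 replicate 2 and 0.77 to 0.92 in the other batches. Its lower tercile stood at 10.8 CPM there and its upper at 64.8 CPM. For Hist1h1e, an H1 gene, the log2 ratio by Top2a and Cdk1 was 5.76 in E9.5 replicate 1 and 0.55 to 1.29 elsewhere. Its lower tercile, of 8 cells, held 1.16 CPM against 116 CPM in the upper.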

How the results depend on the processing

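The histone sum kept its direction between stages and terciles in every alternative run, and none moved by more than the spread between batches. The counts of called members were far less stable, and the share of all genes called also moved with the setting. That share is given in brackets. For the ranking by Mcm5 and Pcna, edgeR with TMM called 2 members higher (0.194%). DESeq2 called 27 (3.27%), no filter on low counts 19 (1.85%), cells from 5000 UMIs 0 (0.062%) and the batch median as the cut 4 (0.777%). Removal of globin-rich cells gave 6 (0.856%), thinning to 30000 UMIs 5 (0.795%) and no batch term 0 (0.00881%). Leaving out each batch in turn gave 0 members (0 to 0.134%). For the ranking by Top2a and Cdk1, edgeR with TMM called 3 members higher (0.205%). The counts were 27 in DESeq2 (1.88%), 21 without the filter (0.880%), 9 with the median as the cut (0.492%) and 11 after thinning (1.12%). They were 0 with no batch term (0.0178%) and 0 to 5 with a batch left out (0 to 0.498%). For globin-rich cells edgeR with TMM called 6 higher (10.7%) and 0 lower (10.5%). Leaving out 1 of the 3 batches with such cells gave 0 to 5 higher. It gave 0 higher (9.22%) and 2 lower (11.1%) without E10 replicate 2, and 1 higher (3.80%) without E9.5 replicate 2. For neuronal-gene cells edgeR called 3, all lower, with 2.23% of all genes called lower. DESeq2 gave 27 (7.09%), no filter 8 (3.42%) and leaving out a batch 3 to 18 (1.35 to 8.13%), with 18 without E10 replicate 1. Cells from 5000 UMIs gave 9 (4.12%), in a run that also took in E10 replicate 2. Low wells of that batch that resembled wells of E10 replicate 3 pass the limit of 5000 UMIs, and their part was not tested.

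Settings chosen after seeing the data were the removal of neuronal-gene cells and scaling to total UMIs without TMM. The first gave 1 member by Mcm5 and Pcna (0.342% of all genes) and 5 by Top2a and Cdk1 (0.248%). The second gave 1 by Mcm5 and Pcna (0.141%). It gave 0 higher (2.67%) and 2 lower (24.9%) for globin-rich cells, and 1 lower (1.20%) for neuronal-gene cells. The only named member that changed sign was Hist1h2bc by Top2a and Cdk1, at -0.041 with the median as the cut. Under the alternatives 335 values of named members kept their direction and side of the threshold, 56 lost the call and 54 gained it. No paired analysis was possible because the samples share no replicate that links the stages beyond a number given in accession order. Genes under a few CPM rest on few UMIs per tercile, and oligo-dT capture limits every level to A-primed transcripts.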
